A study of Mus musculus with 28 samples.

Results

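Copy number of the p53 target genes Cdkn1a, Bax, Bbc3, Pmaip1 and Sesn2 was followed in 24 mouse tumours, 5 genes of 20661 autosomal protein-coding genes with a value. They were taken by name as genes that p53 switches on for cell cycle arrest, cell death and the stress response, by a rule that used no measured value. The tumours were 7 thymic lymphomas of p53 AD/- mice, 7 thymic lymphomas of p53 RP/- mice, 5 sarcomas of p53 AD/- mice and 5 sarcomas of p53 RP/- mice, all of mixed BALB/C and C57BL6 ancestry and all taken at end point. AD is an allele for a dimeric p53 and RP an allele for a monomeric p53; both are germline changes, each stands opposite a null allele, and no tumour with wild-type p53 was among the 24. A thymic lymphoma is a tumour of developing T cells and a sarcoma a tumour of connective tissue. Only DNA was measured, so the copy ratios below say nothing of how strongly a gene was transcribed.

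p53 is a transcription factor that binds DNA as a tetramer and responds to DNA damage and other stress. Cdkn1a encodes p21, which inhibits cyclin-dependent kinases and stops the cell cycle. Bax, Bbc3 (PUMA) and Pmaip1 (NOXA) belong to the Bcl-2 family, which controls whether mitochondria release the factors that start apoptosis: Bax is an effector that opens the outer mitochondrial membrane, and PUMA and NOXA are BH3-only proteins that bind and neutralise the family's survival members. In mouse thymocytes PUMA is known for its large part in death after irradiation. Sesn2 encodes Sestrin2, a stress protein that restrains the growth kinase mTORC1 through the GATOR complexes and supports antioxidant defence.

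Each value is the mean log2 copy ratio of a tumour over its comparison DNA across the gene on GRCm38, with segments weighted by their overlap with the gene. A gene was called gained at 0.3 or above and lost at -0.3 or below. A call was named whole-chromosome where at least 80% of the segmented chromosome was in the same state, focal where the run of segments in that state was at most 3 Mb, and regional otherwise. The 2 genes that carried a focal call, Cdkn1a and Bbc3, each have a p53 element in a RefSeq promoter window of GRCm38.p6, shown here because p53 binding is what makes these genes targets, and because the Bbc3 element lies just outside the segment lost there. Capitals mark 20 bases made of 2 adjacent p53 half-sites.
Cdkn1a, chr17:29090729-29090978, + strand, the 250 bases before the first annotated base: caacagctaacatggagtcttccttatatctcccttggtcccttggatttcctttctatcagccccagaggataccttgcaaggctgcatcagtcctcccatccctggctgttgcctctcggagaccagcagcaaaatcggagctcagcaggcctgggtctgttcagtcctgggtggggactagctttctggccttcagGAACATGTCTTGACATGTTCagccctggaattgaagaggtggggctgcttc
Bbc3, chr7:16309481-16309510, + strand: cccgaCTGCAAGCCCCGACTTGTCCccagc
The search took the p53 consensus of 2 half-sites with no spacer, kept both cores intact and allowed up to 3 mismatches at the 12 other positions; the consensus is its own reverse complement, so both strands were covered. The Cdkn1a element had 1 mismatch and the Bbc3 element 3. Over 32851 promoter windows, counting the 250 bases before each start, 0.475% held such an element and 0.0457% held one with at most 1 mismatch. No match was found in the Bax and Sesn2 windows, and Pmaip1 was not searched here. The rule was set with the Cdkn1a and Bbc3 sequences in view, and a match describes letters and not binding.

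Depth, centring and the engineered gene bear on every value. The tumours had 211948 to 212450 markers each and 52 to 499 autosomal segments; how many reads stand behind a marker is unknown. The autosomal median ran from -0.25 to -0.01 in thymic lymphomas and from -0.09 to 0.00 in sarcomas. Autosomal marker totals did not overlap between any of the 4 groups: AD thymic lymphomas held 204845 to 204849, RP thymic lymphomas 204917 to 204922, AD sarcomas 205075 to 205076 and RP sarcomas 205073 to 205074. If the groups were processed apart, that cannot be told apart from tumour type or from genotype. AD thymic lymphomas 6 and 7 stood apart with 93 and 169 short losses (up to 10 markers and up to 50 kb), where the other thymic lymphomas had 11 to 37 and the sarcomas 1 to 13. Trp53 itself was called lost in 0 of 24 tumours and gained in 1, an RP thymic lymphoma. It averaged 0.04 in both thymic lymphoma groups and 0.08 in both sarcoma groups, and ran from -0.23 to 0.36 in the RP thymic lymphomas. As a check of tissue, 13 of 14 thymic lymphomas and 0 of 10 sarcomas were at or under -0.3 in the megabase of chromosome 6 that holds the T-cell receptor beta locus, which T cells cut when they rearrange the receptor. Values of neighbouring genes come from the same segment, and the 20661 genes held 2090 distinct profiles across the tumours. In bulk tumour DNA, a change in few cells and a small change in all cells cannot be told apart.

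Of the 120 values (5 genes in 24 tumours), 29 were called, which is 24.2%, against 17.7% over all genes. Whole-chromosome calls made up 23 of the 29, regional calls 4 and focal calls 2. Per value, 19.2% of the members' values were whole-chromosome calls, against 13.7% over all genes, and 1.67% were focal calls, against 0.567%. The 2 focal calls were both losses in AD thymic lymphomas: Cdkn1a in tumour 2 and Bbc3 in tumour 7. The tumours differed in how many members they carried altered. RP thymic lymphomas 2, 5 and 7 each had 4 of the 5 called, with Bax, Bbc3 and Pmaip1 lost and Sesn2 gained. Over all genes, 51.0%, 37.7% and 47.9% were called in those 3 tumours. These calls were made on values as deposited, and the autosomal medians of tumours 2, 5 and 7 were -0.11, -0.07 and -0.19. Relative to these medians, no member loss in RP thymic lymphomas 2 and 7 reaches the call. In RP thymic lymphoma 5, Bax and Pmaip1 still do and Bbc3 does not. Sesn2 stays gained in all 3. No AD thymic lymphoma had more than 2 called, and their share over all genes ran from 12.5% to 42.2%; AD sarcoma 3, with Bax and Bbc3 gained and 15.9% of all genes called, was the one sarcoma with any call of a member.

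**Figure D1:**
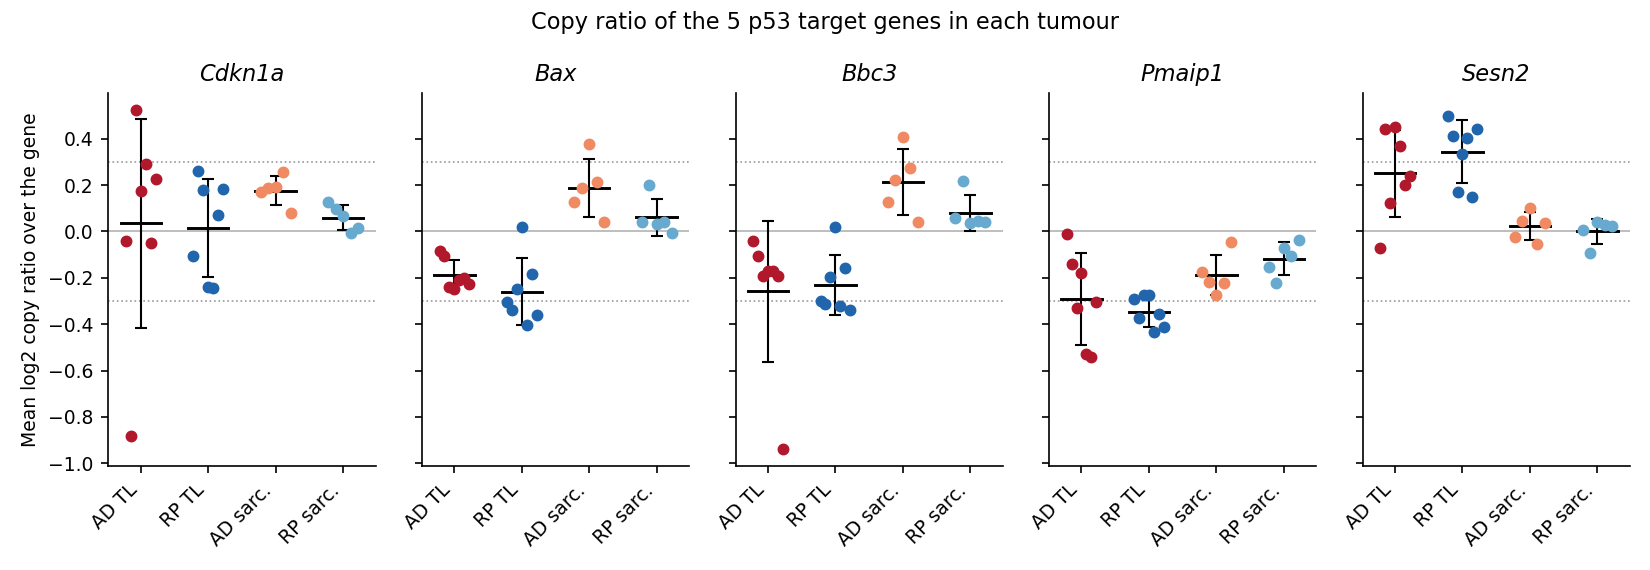
Mean log2 copy ratio over each gene (vertical axis) in the 4 tumour groups; points are tumours, thick lines means, bars SD, dotted lines the calls at 0.3 and -0.3, TL stands for thymic lymphoma and sarc. for sarcoma. Cdkn1a in AD thymic lymphoma 2 (-0.88) and Bbc3 in AD thymic lymphoma 7 (-0.94) sit far below all other points.

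Cdkn1a, the arrest gene, at chromosome 17, 29090979 to 29100722, had no shared direction in the thymic lymphomas. Its log2 copy ratio in AD thymic lymphomas ran from -0.88 through a median of 0.18 to 0.52, with a mean of 0.03 ± 0.45 (SD, n = 7). In RP thymic lymphomas it ran from -0.25 through 0.07 to 0.26, with a mean of 0.02 ± 0.21 (SD, n = 7). AD sarcomas had 0.17, 0.19, 0.19, 0.25 and 0.08, and RP sarcomas 0.13, 0.10, 0.07, -0.005 and 0.02. It was called in 2 tumours, both AD thymic lymphomas: tumour 3 gained the whole of chromosome 17 at 0.52, and tumour 2 lost the gene focally. At least 1 gain was called in 37.4% of all genes in the AD thymic lymphomas, and at least 1 loss in 46.8%. A focal loss in at least 1 of the 24 tumours was called in 4.64% of all genes.

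The focal loss of Cdkn1a in AD thymic lymphoma 2 lay in a segment of 0.841 Mb, 28428351 to 29269000, with 202 markers and a segment mean of -0.88, a linear copy ratio of 0.542. The segments on either side were at -0.09 and -0.03, and the chromosome median was -0.09. The segment overlapped 21 protein-coding genes. They include Mapk14 and Mapk13, which encode stress-activated p38 kinases, Fkbp5, which encodes a co-chaperone of the glucocorticoid receptor, Srsf3 and Srpk1, which encode a splicing factor and a kinase of splicing factors, and the kinase gene Stk38. Pim1, a proto-oncogene known in mouse T-cell lymphoma, lay in the next segment, which was not lost (29282059 to 29716933, -0.03). Downstream, 2 more short losses followed with unchanged stretches between them: 29832307 to 30005237 at -1.01 over 22 markers, with Mdga1 and part of Zfand3, and 30524712 to 30932612 at -0.99 over 113 markers, with Glo1, Dnah8, Glp1r and part of Btbd9. The 3 losses came to 1.42 Mb of the 7 segments on this chromosome, and the other 4 segments lay between -0.10 and -0.03. Among all genes of that tumour, 0.223% were at least as far from their chromosome median as Cdkn1a.

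AD thymic lymphoma 4 showed the opposite arrangement, with Cdkn1a kept on a chromosome that was mostly lost. Its chromosome 17 had a median of -0.78 and was cut into 46 segments, of which 38 were lost, covering 73.7 Mb. The 8 that were not lost covered 15.8 Mb. Besides the segment with Cdkn1a they included 4908009 to 6256943 at 0.18 and 7363791 to 10576464 at 0.14. The other thymic lymphomas had from 2 (RP tumour 7) to 27 (AD tumour 7) segments on this chromosome, and the median of the 14 was 6. Cdkn1a lay in a segment from 23945559 to 32625121, 8.68 Mb with 2450 markers, at 0.18. The gene therefore stood 0.95 above its chromosome median while its own value was under the threshold for a gain. Among all genes of that tumour, 3.23% were as far from their chromosome median. This segment spans the whole stretch lost focally in tumour 2.

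**Figure D2:**
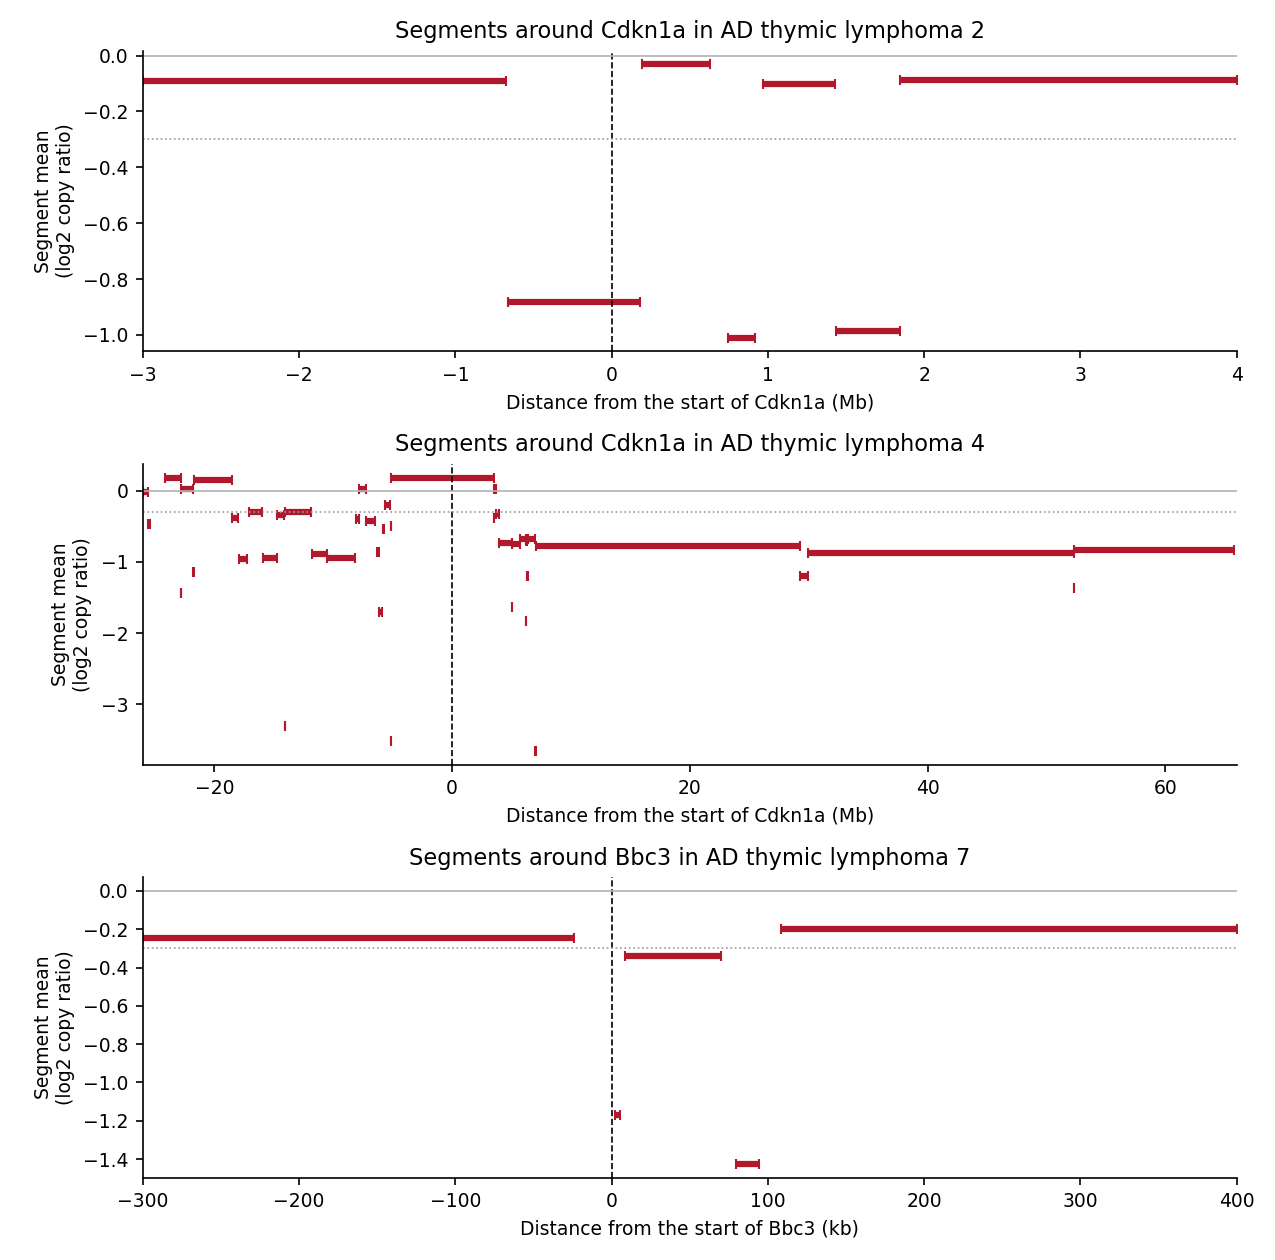
Segment means (log2 copy ratio, vertical axis) against distance from the start of Cdkn1a in AD thymic lymphomas 2 and 4 (Mb) and from the start of Bbc3 in AD thymic lymphoma 7 (kb); each bar is a segment, the dashed line the start of the gene and the dotted line -0.3. Cdkn1a sits in the first of 3 short losses in tumour 2 and in a kept segment of 8.68 Mb in tumour 4, and Bbc3 is crossed by a loss of 4 markers in tumour 7.

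Bax and Bbc3, the pair of death genes on chromosome 7, were lower in thymic lymphomas than in sarcomas. Bax, at 45461695 to 45466903, ran from -0.25 through a median of -0.21 to -0.08 in AD thymic lymphomas, with a mean of -0.19 ± 0.07 (SD, n = 7). In RP thymic lymphomas it ran from -0.40 through -0.30 to 0.02, with a mean of -0.26 ± 0.14 (SD, n = 7). AD sarcomas had 0.13, 0.19, 0.38, 0.22 and 0.04, and RP sarcomas 0.04, 0.20, 0.03, 0.04 and -0.01. Bax was called lost in 0 AD and 4 RP thymic lymphomas (tumours 1, 2, 5 and 7), and 24.8% of all genes were lost in at least 4 of the 7 RP thymic lymphomas and 32% in at least 4 of the 14. In 3 of the 4 the whole chromosome was lost, and in tumour 1 the lost share was 78.4%, just under the 80% rule. The calls were made on values as deposited. Relative to each tumour's autosomal median, Bax still reaches the loss call in RP tumour 5 (-0.40, median -0.07). In RP tumours 1, 2 and 7 it does not. The 4 RP values, from -0.40 to -0.30, lie close to the call at -0.3, and the lowest AD value was -0.25, so that the split in calls by genotype is not matched by a difference in means that passed a test.

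Bbc3, at 16308398 to 16318334, ran in AD thymic lymphomas from -0.94 through a median of -0.17 to -0.04, with a mean of -0.26 ± 0.30 (SD, n = 7). In RP thymic lymphomas it ran from -0.34 through -0.30 to 0.02, with a mean of -0.23 ± 0.13 (SD, n = 7). AD sarcomas had 0.13, 0.22, 0.41, 0.27 and 0.04, and RP sarcomas 0.06, 0.22, 0.04, 0.04 and 0.04. The highest thymic lymphoma (RP tumour 4, 0.021) lay below the lowest sarcoma (RP tumour 3, 0.038). The tumour types thus did not overlap as deposited, though those neighbours differ by less than the spread within either group. Their autosomal medians were -0.25 and -0.01, and relative to these the order of the 2 neighbours is reversed. The absence of overlap therefore rests on the centring of the deposited values. Genes whose thymic lymphomas all lay below all sarcomas made up 2.56% of those tested. Bbc3 was called lost in AD thymic lymphoma 7 and in the same 4 RP thymic lymphomas as Bax, and 25% of all genes were lost in at least 5 of the 14. Relative to each tumour's autosomal median, the Bbc3 loss in AD thymic lymphoma 7 still reaches the call. Those in the 4 RP thymic lymphomas do not. AD sarcoma 3 gained both genes (Bax 0.38, Bbc3 0.41) together with 97.7% of chromosome 7, and 13.2% of all genes were gained in at least 1 AD sarcoma (14.4% in at least 1 of the 10 sarcomas). In 23 tumours Bbc3 lay between 0 and 0.08 above Bax, and in 4 of these it equalled Bax because both lay in the same segment.

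The exception was AD thymic lymphoma 7, where Bbc3 stood 0.71 below Bax. There 2 segments touch the gene and cover 43.7% of it: 16310505 to 16313626, with 4 markers at -1.17, and 16317117 to 16378364, with 10 markers at -0.34. A further loss of 6 markers at -1.43 followed at 16387640 to 16402736, overlapping Sae1 and Zc3h4, and the longer segments outside were at -0.25 and -0.20. The p53 element printed above ends 1000 bases before the first base of the 4-marker loss, in a stretch that no segment of this tumour covers. This tumour had the most segments and the most short losses of the 24, and its chromosome 7 alone had 93 segments, 51 of them lost. With segments under 5 markers left out, Bbc3 took the value of the 10-marker segment and kept a focal loss call. That value, -0.34, is close to the call at -0.3, and the segment covers 12.3% of the gene. The chromosome median and the autosomal median of this tumour were both -0.25. The part of the many short losses in this call was not tested.

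Pmaip1, the third death gene, at chromosome 18, 66458604 to 66465558, was below 0 in all 24 tumours as deposited and moved with its whole chromosome. Autosomal medians ran from -0.25 to 0.00, and AD thymic lymphoma 1 (-0.01) lay above its own median of -0.08. It ran in AD thymic lymphomas from -0.54 through a median of -0.30 to -0.01, with a mean of -0.29 ± 0.20 (SD, n = 7). In RP thymic lymphomas it ran from -0.43 through -0.36 to -0.27, with a mean of -0.35 ± 0.07 (SD, n = 7). AD sarcomas had -0.17, -0.22, -0.27, -0.22 and -0.05, and RP sarcomas -0.15, -0.22, -0.07, -0.10 and -0.04. It was lost in 4 AD and 4 RP thymic lymphomas and in no sarcoma, and 8.96% of all genes were lost in at least 8 of the 14 thymic lymphomas (7.55% in at least 4 of the 7 AD tumours). All 8 losses covered at least 95.2% of the chromosome. These calls too were made on values as deposited. AD thymic lymphoma 7, at -0.30, had an autosomal median of -0.25 and lay little below it, while AD thymic lymphoma 5, at -0.53, had a median of -0.09. Pmaip1 equalled its chromosome median in 21 of 24 tumours and shared its exact values in all 24 with 274 other genes, so its profile is that of much of chromosome 18.

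Sesn2, the stress gene, at chromosome 4, 132492804 to 132510456, was the one member that rose in thymic lymphomas. It ran in AD thymic lymphomas from -0.07 through a median of 0.24 to 0.45, with a mean of 0.25 ± 0.19 (SD, n = 7). In RP thymic lymphomas it ran from 0.15 through 0.40 to 0.50, with a mean of 0.34 ± 0.14 (SD, n = 7). AD sarcomas had -0.02, 0.05, 0.10, -0.05 and 0.04, and RP sarcomas 0.01, -0.09, 0.04, 0.03 and 0.02. It was gained in 3 AD thymic lymphomas (2, 4 and 5) and 5 RP thymic lymphomas (1, 2, 4, 5 and 7), and 2.57% of all genes were gained in at least 8 of the 14 (11.6% in at least 3 of the 7 AD and 3.33% in at least 5 of the 7 RP tumours). In 6 of the 8 the whole of chromosome 4 was gained; in AD tumour 5 the gained share was 72.7% and in RP tumour 4 it was 20.7%. In RP tumour 4 only part of the chromosome reached the call at 0.3, with Sesn2 at 0.33 in a segment of 11.5 Mb. The chromosome median there was 0.24, against an autosomal median of -0.25, the lowest of the 24 tumours. The chromosome as a whole was thus raised above the rest of that genome. Only the AD thymic lymphoma 1 value (-0.07) lay within the range of the sarcomas.

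AD and RP tumours were compared for each gene with exact permutation tests, two-sided, with Benjamini-Hochberg adjustment over all 20661 genes. In thymic lymphomas no member differed. The difference of AD minus RP was 0.02 ± 0.19 for Cdkn1a (SE; exact adjusted p = 0.988), 0.07 ± 0.06 for Bax (exact adjusted p = 0.586), -0.03 ± 0.13 for Bbc3 (exact adjusted p = 0.972), 0.05 ± 0.08 for Pmaip1 (exact adjusted p = 0.673) and -0.09 ± 0.09 for Sesn2 (exact adjusted p = 0.586). Of all genes 0% passed, by this test and by limma, and 8.54% had an unadjusted p under 0.05 (1765 genes; 2065 with limma). These differences depend on single tumours. Leaving out 1 tumour at a time turned the sign for Cdkn1a in 7 of 14 runs, with a range from -0.06 (without AD tumour 3) to 0.17 (without AD tumour 2). Bbc3 turned to 0.08 without AD tumour 7 and to 0.01 without RP tumour 4. Without AD tumour 1 the difference was 0.008 for Pmaip1 and -0.04 for Sesn2, and without RP tumour 4 it was 0.12 for Bax (exact p = 0.0187, adjusted 0.294). These standard errors leave room for differences of either sign, and the absence of a call does not show that the genotypes are alike.

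In sarcomas the AD minus RP difference was 0.12 ± 0.04 for Cdkn1a (SE; exact p = 0.0238, adjusted 0.557), where AD sarcomas averaged 0.18 ± 0.06 and RP sarcomas 0.06 ± 0.05 (SD, n = 5 each). The groups overlapped, since AD sarcoma 5 had 0.08 and RP sarcoma 1 had 0.13. Bax (0.13 ± 0.07) and Bbc3 (0.13 ± 0.07) had differences of the same size with exact p = 0.103 and 0.0952, Pmaip1 had -0.07 ± 0.05 (exact p = 0.198) and Sesn2 0.02 ± 0.04 (exact p = 0.579). The smallest p that 5 against 5 tumours allow is 0.00794. After adjustment over 20661 genes, the exact test could call a gene only if very many genes reached that floor together. Its lack of calls in sarcomas therefore says little. Of all genes 0% passed after adjustment, by this test and by limma, and 5.06% had an unadjusted p under 0.05 (1046 genes; 2865 with limma). The chromosome medians differed by 0.08 for chromosome 17 and 0.13 for chromosome 7, against 0.12 for Cdkn1a and 0.13 for the pair on chromosome 7. No member passed the test of whether the genotype difference itself differed between tumour types (exact permutation, adjusted p from 0.631 to 0.740), nor did any of the 20661 genes, of which 9.22% had an unadjusted p under 0.05.

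Between tumour types, 4 of the 5 members passed. The test permuted tumour type within genotype, exactly, and 39.8% of all genes passed it, 5.69% higher and 34.2% lower in thymic lymphomas. Against that background, passing is common for a gene in these tumours. Thymic lymphomas minus sarcomas came to -0.35 ± 0.05 for Bax (SE; exact adjusted p = 9.6e-05), -0.39 ± 0.07 for Bbc3 (exact adjusted p = 9.8e-05), -0.17 ± 0.05 for Pmaip1 (exact adjusted p = 0.0135) and 0.29 ± 0.05 for Sesn2 (exact adjusted p = 0.000732). Cdkn1a had -0.09 ± 0.09 (exact adjusted p = 0.627); its mean was 0.02 in thymic lymphomas and 0.12 in sarcomas. The differences had the same sign in both genotypes: -0.38 in AD and -0.32 in RP animals for Bax, -0.47 and -0.31 for Bbc3, -0.10 and -0.23 for Pmaip1, and 0.23 and 0.34 for Sesn2. The call for Pmaip1 rests on the centring of the deposited values. With each tumour centred on its own autosomal median, its difference was -0.08 (exact adjusted p = 0.251), while Bax, Bbc3 and Sesn2 still passed. That centring changed the count over all genes to 4512 (1454 higher, 3058 lower), against 8233 (1175 higher, 7058 lower) as deposited.

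These differences nearly equalled those of the chromosomes that hold the genes. The chromosome medians differed by -0.34 for chromosome 7, -0.16 for chromosome 18 and 0.29 for chromosome 4. With each gene taken relative to its chromosome median, what remained was -0.01 for Bax, -0.05 for Bbc3, -0.003 for Pmaip1 and -0.01 for Sesn2. The value for Bbc3 rests on AD thymic lymphoma 7, without which it was 0.004; on the scale as deposited the Bbc3 difference without that tumour was -0.34. None of the 4 passed on that scale (exact adjusted p from 0.771 to 1), and of all 20661 genes 0 passed, with 2067 at an unadjusted p under 0.05. The chromosome median includes the gene's own segment, so a gene whose segment covers most of the chromosome takes exactly 0 on that scale. For Pmaip1 that held in 12 of 14 thymic lymphomas and 7 of 10 sarcomas, and for Bax in 6 and 4. Where the value is fixed at 0 in this way, the test cannot show a difference beyond the chromosome. Of the 120 member values, 112 lay within 0.1 of the chromosome median and 60 equalled it. Values at least 0.1 away made up 6.67% of the members' values and 4.25% over all genes. Values at least 0.3 away made up 2.5% of the members' values and 1.56% over all genes. The 3 that did were Cdkn1a in AD thymic lymphomas 2 and 4 and Bbc3 in AD thymic lymphoma 7.

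**Figure D3:**
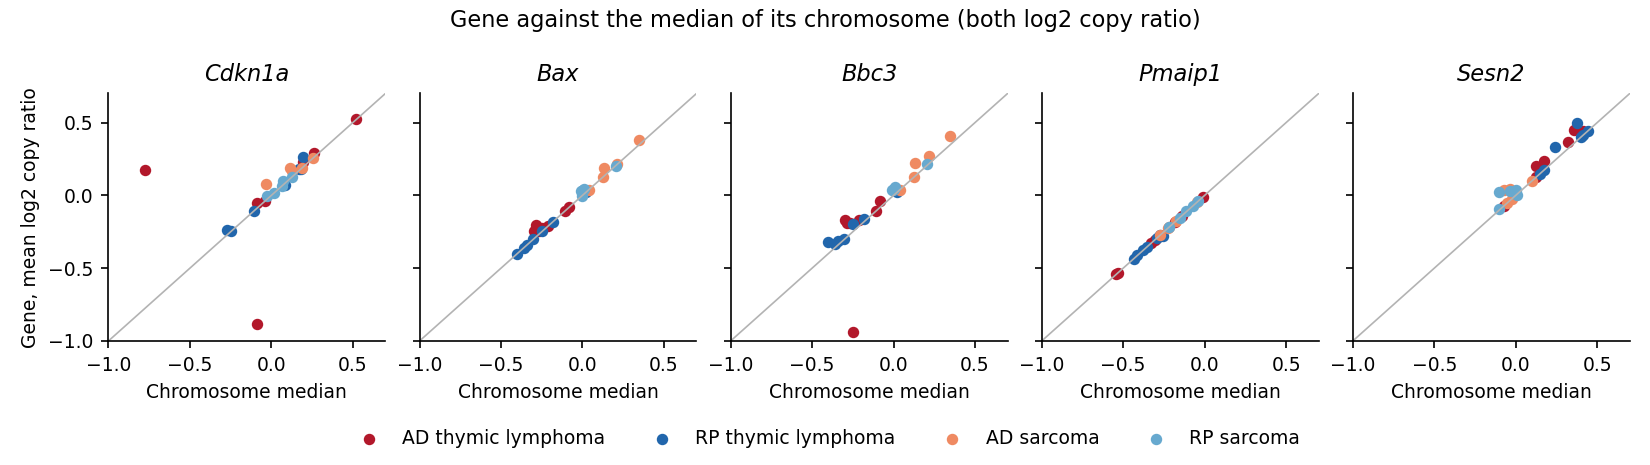
Log2 copy ratio of each gene (vertical axis) against the median of its chromosome (horizontal axis) in each of the 24 tumours, coloured by group; the line marks equal values. Nearly all points lie on or near the line, apart from Cdkn1a in AD thymic lymphomas 2 and 4 and Bbc3 in AD thymic lymphoma 7.

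**Figure D4:**
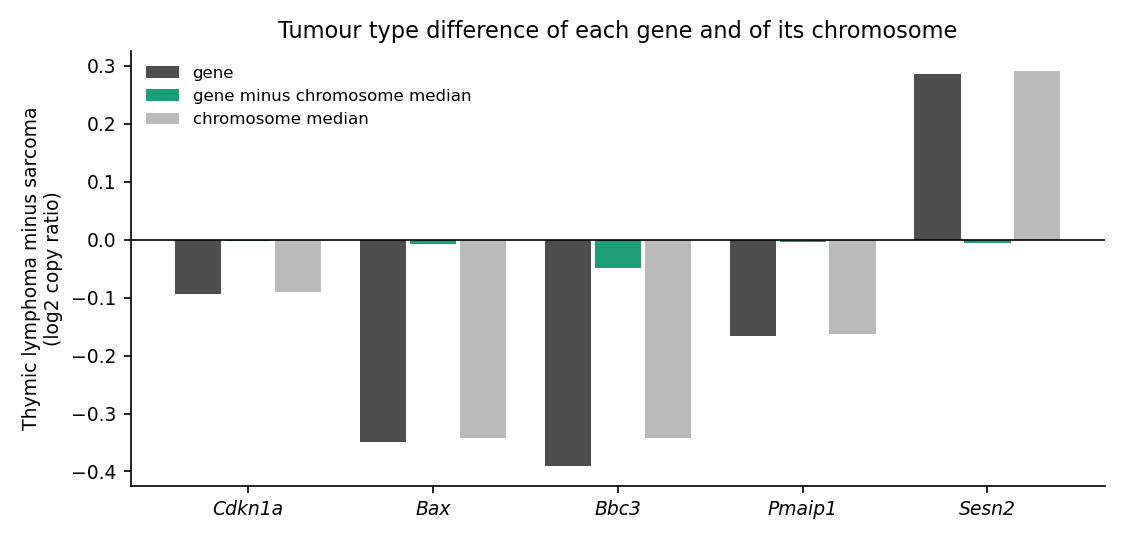
Thymic lymphoma minus sarcoma difference in mean log2 copy ratio (vertical axis) for each gene, for the gene relative to its chromosome median and for the chromosome median itself. For Bax, Pmaip1 and Sesn2 the gene and chromosome bars are nearly equal, and Bbc3 keeps -0.05 beyond its chromosome, or 0.004 without AD thymic lymphoma 7.

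Segment ends near the members recurred in some tumours. The segment over Bbc3 began between 15919862 and 15922251 in 10 of 24 tumours, 5 thymic lymphomas and 5 sarcomas. The segment over Pmaip1 began between 35610896 and 35613322 in 6 thymic lymphomas and 0 sarcomas, and the segment over Sesn2 ended at 134155676 in 4 thymic lymphomas and 0 sarcomas. Ends were counted as shared within 10 kb, and whether they follow the tumours or the placing of the markers was not tested.

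Other genes of the pathway were counted in lists chosen for their roles, and each count stands against the 5.69% of all genes that passed as higher and the 34.2% that passed as lower. In the comparison of thymic lymphomas with sarcomas, 2 of 12 other p53 targets of cell cycle arrest passed as higher and 4 as lower. The higher ones were Plk3, which encodes a stress kinase, and Sfn, which encodes 14-3-3 sigma, an inhibitor of mitotic entry; both are on chromosome 4, and Sfn had the same values as Sesn2 in every tumour. The lower ones were Cdc25c, Gadd45a, Plk2 and Zmat3. Of 15 other targets of cell death, 1 passed as higher, the autophagy and death gene Trp53inp1 on chromosome 4 (0.29), and 6 as lower. Those 6 were the death receptor Fas (-0.22), the BH3-only gene Bid (-0.23), the death-associated kinase gene Dapk1 (-0.34), Casp6 (-0.15), Aen (-0.34) and Pidd1 (-0.37). Aen and Pidd1 lie on chromosome 7 with Bax and Bbc3. Of 15 targets of stress and metabolism, 0 passed as higher and 3 as lower: Polk, Tigar and Xpc. The lists' median differences were -0.01 for arrest, 0.00 for death and 0.03 for stress and metabolism, against -0.04 over all genes and -0.17 over the 5 members.

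The members' direct partners were counted in the same way, against the same shares of all genes. Of 12 further Bcl-2 family genes, 3 passed as lower, Bad, Bid and Mcl1, and 0 as higher; Bid stands in both death lists. Of 9 partners of p21, 3 passed as lower, the cyclin genes Ccna2, Ccnd1 and Ccne1, and 0 as higher. Ccnd1 and Ccne1 lie on chromosome 7 with Bax and Bbc3. Of 13 genes that act with Sestrin2 in nutrient sensing and antioxidant defence, 4 passed as higher and 4 as lower. The higher ones, all on chromosome 4 with Sesn2, were Mtor (0.30), the AMPK subunit gene Prkaa2 (0.29) and the Rag GTPase genes Rraga (0.28) and Rragc (0.29). The lower ones were Mios (-0.22), Sec13 (-0.23), Seh1l (-0.17) and Wdr59 (-0.16). They encode GATOR2 subunits, as does the listed gene Wdr24, which did not pass (-0.03, exact adjusted p = 0.777). The median difference was -0.03 for the Bcl-2 family, -0.09 for the partners of p21 and -0.03 for those of Sestrin2. No listed gene passed between AD and RP tumours of either type.

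Focal calls among the listed genes fell mostly in the 2 tumours with many short losses. Siva1, a p53 target of cell death on chromosome 12, was gained focally in AD thymic lymphomas 5 (1.17, a run of 0.273 Mb) and 6 (4.80, a run of 1.23 Mb). Apaf1, the scaffold of the apoptosome, was lost focally in RP thymic lymphoma 5 (-0.34, 2.92 Mb). In AD thymic lymphoma 7, Bad (-1.47), Ccne1 (-0.31), Cdk2 (-0.32) and Pcna (-0.44) were lost focally and Keap1 (0.38) was gained, and Pcna was also lost in AD thymic lymphoma 6 (-0.81). The Bad and Pcna losses spanned 0.0101 to 0.0133 Mb each.

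Across the 24 tumours, the listed genes on other chromosomes with the most similar profiles were Gadd45a and Xpc for Bax (Pearson r of 0.79 each), Bad and Gadd45a for Bbc3 (0.75 and 0.70), Xpc and Gadd45a for Pmaip1 (0.71 and 0.70) and Prkaa1 and Gtse1 for Sesn2 (0.54 and 0.53). For Cdkn1a the highest were Sqstm1 and Keap1, at 0.34 and 0.31. These correlations describe 24 tumours of 2 types that differ in their chromosomes, and genes on 1 chromosome share them. For Bax with Bbc3, the only members on the same chromosome, r was 0.83 over all tumours, 0.45 within the 14 thymic lymphomas and 0.99 within the 10 sarcomas. Bbc3 minus Bax was -0.71 in AD thymic lymphoma 7 and between 0 and 0.08 in every other tumour. The correlation without AD thymic lymphoma 7 was not computed.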

How the data were processed

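Exome DNA of 24 tumours was analysed. The 4 ear samples, labelled normal control and each with the identifier of a tumour, were not analysed here. The deposited tables list segments per tumour, on GRCm38 per the submitters' processing notes, which name Trim Galore 0.6.5, BWA 0.7.17 and GATK 4.1.0.0 without order or role. Per the file headers these give start, end, marker number and mean of every segment, and the mean in the deposited tables was read here as a log2 copy ratio from its negative values and size. Not given in the sources used here are the comparison DNA, the centring, the segmentation settings and whether purity was corrected; admixed normal cells bring log2 values nearer 0.

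Gene positions came from RefSeq (GRCm38.p6). A gene with no overlapping segment took the nearest one. Groups follow the genotype and tissue labels, with replicates numbered in the order of the labels, and each tumour, which has an identifier of its own in the labels, was taken as 1 animal. Means were compared with exact permutation tests, two-sided, over 3432 splits (7 against 7), 252 splits (5 against 5), 627264 splits (tumour type within genotype) and 864864 splits (difference of differences), adjusted by Benjamini-Hochberg over 20661 genes. The test script was tested on simulated data. Tools were Python 3.11.15, numpy 2.4.6, pandas 2.3.3, matplotlib 3.10.9, R 4.3.3 and limma 3.58.1. Alternatives were limma, centring, the largest overlapping segment, segments under 5 markers left out, genes overlapped in every tumour, other call cutoffs, and leaving out each tumour. The values relative to the chromosome median and the runs without AD thymic lymphomas 6 and 7 were added after seeing the data. The members, the lists and the tests were chosen with earlier results of these data known. Named genes are the members in every tumour, listed genes with a focal call or past a test, the 2 listed genes on other chromosomes most like each member, genes in focal segments that hold a member, and Trp53; Pim1 was named after its values were seen.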

Additional observations from a re-analysis of the deposited data

Results flagged for a closer look

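In 5 of the 20 sets of values (5 genes in 4 groups), 1 tumour lay far from the others of its group by Dixon's criterion at 95%, which chance meets in about 1 of 20 sets. Cdkn1a in AD thymic lymphoma 2 was at -0.88, and Bbc3 in AD thymic lymphoma 7 was at -0.94; these are the 2 focal losses. RP sarcoma 2 was the lone tumour for 3 genes: Bax at 0.20, Bbc3 at 0.22 and Sesn2 at -0.092. Bax and Bbc3 lie on the same chromosome, with r of 0.99 within the sarcomas, so the 20 sets are not independent. In that tumour Bax lay within 0.01 of its chromosome median, and none of the 3 values reached a call.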

How the results depend on the processing

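Bax, Bbc3 and Sesn2 kept their direction and their call between tumour types under limma, centring, the largest overlapping segment, the omission of short segments and each left-out tumour. Centring took away the Pmaip1 call (-0.077) and left 4512 genes called, against 8233. Relative to the chromosome median, the differences between tumour types were -0.0069 for Bax, -0.048 for Bbc3, -0.0034 for Pmaip1 and -0.0055 for Sesn2, with 0 genes called. On that scale AD minus RP was 0.014 for Sesn2 in thymic lymphomas, and -0.0051 for Bax and -0.0090 for Sesn2 in sarcomas, each of the other sign than on the scale as deposited. AD minus RP for Bbc3 in thymic lymphomas was 0.057 with segments under 5 markers left out and 0.094 without AD thymic lymphomas 6 and 7, and for Cdkn1a it was -0.0021 without those tumours. Beyond what the scale itself removes, the cause was not tested. With a cutoff of 0.2 there were 55 calls, 48 of them whole-chromosome and 1 focal. The focal one was Cdkn1a in AD thymic lymphoma 2, and Bbc3 in AD thymic lymphoma 7 was no longer focal. With 0.5 there were 5 calls, of which 3 were whole-chromosome, 0 regional and 2 focal. Regional calls came to 2 with centring and to 1 with a whole-chromosome share of 60%, and 1 focal call remained without AD thymic lymphomas 6 and 7. Leaving out each tumour in turn, AD minus RP in thymic lymphomas ran from -0.061 to 0.173 for Cdkn1a and from -0.065 to 0.084 for Bbc3, and in sarcomas from -0.0023 to 0.039 for Sesn2; the difference between tumour types in AD minus RP ran from -0.178 to 0.056 for Cdkn1a. The number of genes called between tumour types ran from 8076 to 8456. Tumours could not be paired, because each has an identifier of its own in the labels and replicate numbers follow only the order of the labels. Read depth is unknown.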
